A study of Mus musculus with 9 samples.

Results

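Neuropeptides and their receptors were followed through the days after spinal cord transection as 39 genes, 20 that encode peptide precursors and 19 that encode receptors or receptor subunits. The members were taken by gene symbol from a deposited table of 34745 genes, and all 39 were found there. Bulk poly-A RNA was measured in mouse spinal cord at 0, 3 and 21 days after the cord had been fully cut at T9, a mid-thoracic level, with 3 libraries per time. The design text describes all groups as mice with this cut, and the labels name no drug, allele or transgene. Strain, age, sex, the length of cord collected and whether the day 0 mice had been operated on before collection are not stated. Titles name the day for 6 libraries, and the 3 libraries whose titles name none were assigned to day 0 by elimination. Whether each library is a different mouse is also not stated, so the p-values reflect variation among samples that could be technical.

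Neuropeptides are cut out of larger precursor proteins by convertases inside the regulated secretory pathway, stored in large dense-core vesicles and released during strong activity. They act mostly on G protein-coupled receptors, often at a distance from the site of release, and one family of peptides usually shares a set of receptors. In the spinal cord they are best known from the dorsal horn, where peptides from primary sensory fibres and local interneurons modulate pain, itch and touch, and from motor and autonomic neurons. Galanin and pituitary adenylate cyclase-activating polypeptide (PACAP) are also well known as peptides that injured neurons begin to make in larger amounts.

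Total counts ran from 14299679 to 24022923 per library, and the members took 0.0970 to 0.154% of them. All 10 pan-neuronal markers were present in every group, and their summed FPKM (read count scaled to gene length and library total, a level that can be compared between genes) was 2129 to 2151 at day 0, 1115 to 1130 at day 3 and 1432 to 1606 at day 21. Day 21 replicate 2 stood apart from the other libraries. Its correlation of log2 CPM (counts scaled to library total) with the other day 21 libraries was 0.943 and 0.935, against 0.987 between those 2, and within the day 0 and day 3 groups the correlations were 0.985 to 0.989. The difference of this library from the mean of day 21 replicates 1 and 3 fell along gene length, from a median of 0.70 (log2) over the shortest to -0.72 over the longest of 10 length classes of tested genes. This matters for the members because precursor genes are short, with a median length of 1423 bases, and receptor genes longer, with a median of 4721 bases. In day 21 replicate 2, 19 of 20 precursors lay above the mean of the other day 21 libraries (median difference 0.92, log2) and 16 of 19 receptors lay below it (median -0.64), the exceptions being Adcyap1 among the precursors and Ramp1, Ntsr2 and Cckbr among the receptors. The pan-neuronal markers had a median difference of 0.06 there. Day 0 replicate 1 differed from its group in a smaller way: it received a voom sample weight of 0.354, against 1.75 and 2.03 for the other day 0 libraries and 0.0583 for day 21 replicate 2. In it, 16 of 20 precursors lay above the mean of the other day 0 libraries (median 0.23, log2). Over all tested genes, its difference from that mean had a Spearman correlation with gene length of -0.195, against -0.481 for day 21 replicate 2 in its group. The day 21 results of called members are given with and without day 21 replicate 2, and the part that gene length plays in them was not tested beyond a fit with the length trend removed.

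**Figure D1:**
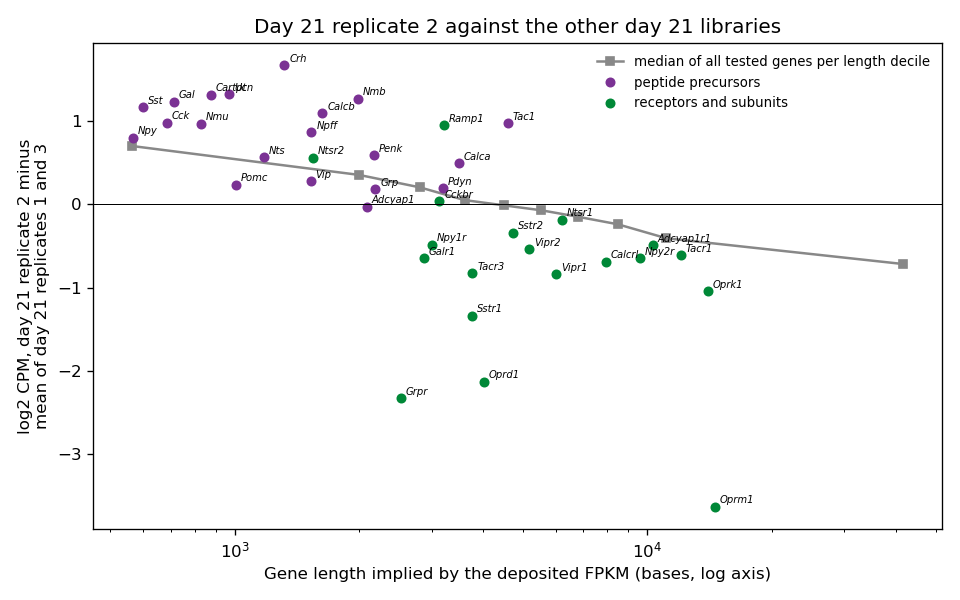
Difference in log2 CPM between day 21 replicate 2 and the mean of day 21 replicates 1 and 3 (vertical axis) against gene length in bases (horizontal log axis). Points are the 39 members by role, and grey squares are medians over all tested genes in 10 classes of gene length, which run from 0.70 to -0.72; most precursors lie above 0 and most receptors below.

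At day 3 most of the 19 member receptors and subunits were lower than at day 0. Of the 39 members, 5 were higher and 16 lower than at day 0 (edgeR quasi-likelihood test, Benjamini-Hochberg adjusted p under 0.05 over 16494 genes), where 24.8% of all tested genes were called higher, 19.5% lower and 44.3% either way. Receptors made up most of the lower calls: 12 of 19 were lower, 1 was higher and the median log2 change was -0.95. Precursors gave 4 higher and 4 lower calls of 20, shares near those of all genes, with a median of -0.15, and the median over all tested genes was 0.01. All 39 members passed the filter on low counts. In bulk tissue, fewer cells that make a transcript and less transcript per cell cannot be told apart.

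At day 21, 5 members were higher and 6 lower than at day 0, beside 17.9% and 11.3% of all tested genes (29.2% either way). Precursors gave 4 higher and 1 lower call with a median of 0.25, and receptors 1 higher and 5 lower with a median of -0.50. Against day 3, 10 members were higher and 1 was lower at day 21, beside 11.7% and 16.1% of all tested genes (27.8% either way). Both sets of day 0 comparisons share the same 3 day 0 libraries.

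Leaving out day 21 replicate 2 changed these counts. Day 3 against day 0 then gave 6 higher and 21 lower members, beside 32.0% and 29.2% of 16739 tested genes. Day 21 against day 0 gave 5 higher and 13 lower, beside 25.1% and 22.4%, and the precursor median moved from 0.25 to -0.13. Leaving out day 0 replicate 1 instead moved that median to 0.46, with 1 higher and 1 lower precursor, and leaving out day 0 replicate 3 moved it to 0.14. Day 21 against day 3 gave 15 higher and 6 lower, beside 23.5% and 25.7%, with 11 of 19 receptors higher and none lower (median 0.69). With the gene-length trend removed from every library instead, the members gave 6 higher and 20 lower calls at day 3 against day 0 (all genes 26.7% and 22.9%), 7 and 9 at day 21 against day 0 (19.8% and 15.7%), and 11 and 3 at day 21 against day 3 (14.5% and 19.0%).

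**Figure D2:**
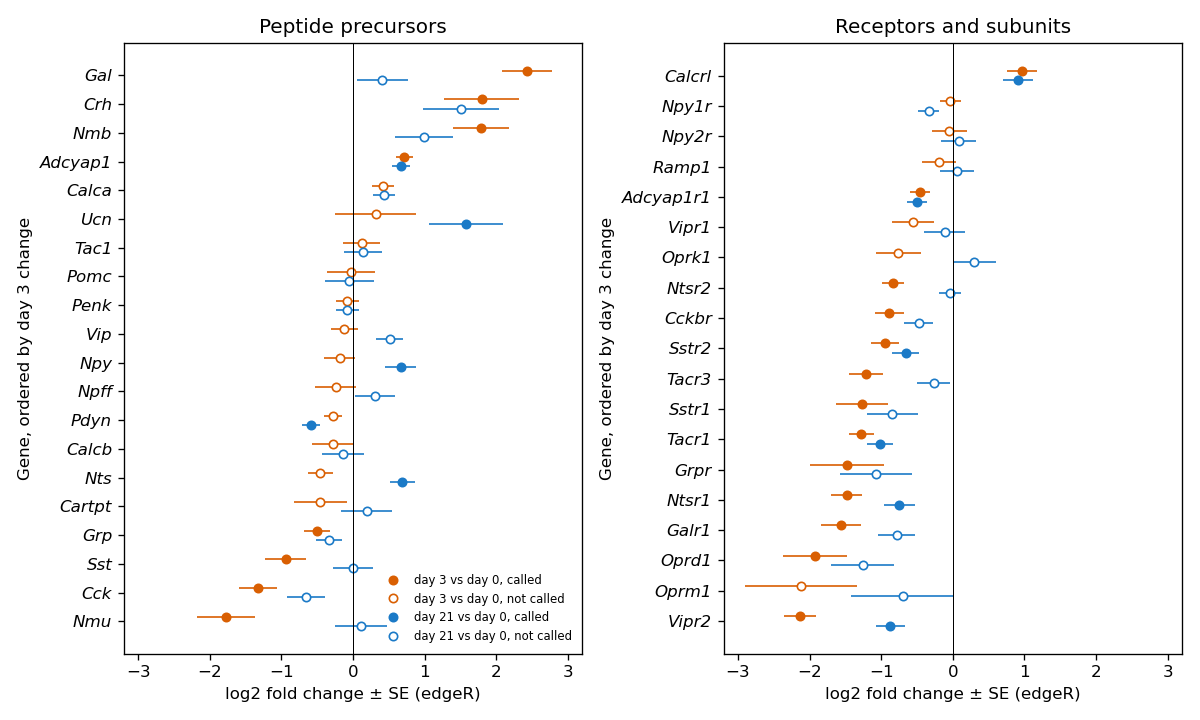
Log2 fold change against day 0 with its standard error (horizontal axis) for each precursor (left) and receptor or subunit (right), at day 3 in orange and day 21 in blue. Filled points passed an edgeR adjusted p under 0.05; at day 3 12 of 19 receptors are filled to the left of 0, and Gal is farthest to the right among the precursors.

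Promoter letters are shown for 3 precursors that rose at day 3 and for 2 that fell, so that the stretches in front of genes that moved in opposite ways can be set side by side. The cyclic AMP response element (CRE), TGACGTCA, is the classical activity-dependent element of peptide genes and was first described in front of the somatostatin gene. RefSeq held a promoter entry (GRCm38.p6) for 31 of 39 members, and each entry of 300 bases was searched. Each line gives the 250 bases before the RefSeq start, 5′ to 3′ on the strand of the gene, with capitals for a CRE or its half-site TGACG on either strand (CGTCA on the other strand). The stretches are chr19:3414545-3414794 (minus strand) for Gal, chr7:80905063-80905312 (minus) for Nmb, chr17:93198767-93199016 (plus) for Adcyap1, chr16:23890845-23891094 (minus) for Sst and chr9:121495695-121495944 (minus) for Cck.
Gal: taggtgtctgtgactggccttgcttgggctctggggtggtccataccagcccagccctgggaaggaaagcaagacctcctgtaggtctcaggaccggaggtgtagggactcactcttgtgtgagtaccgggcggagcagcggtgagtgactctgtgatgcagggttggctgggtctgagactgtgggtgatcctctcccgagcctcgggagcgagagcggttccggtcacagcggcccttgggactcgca
Nmb: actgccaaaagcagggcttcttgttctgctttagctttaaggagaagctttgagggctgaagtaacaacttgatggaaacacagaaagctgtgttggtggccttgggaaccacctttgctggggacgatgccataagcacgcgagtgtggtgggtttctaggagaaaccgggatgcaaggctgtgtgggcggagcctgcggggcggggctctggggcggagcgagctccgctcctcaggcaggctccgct
Adcyap1: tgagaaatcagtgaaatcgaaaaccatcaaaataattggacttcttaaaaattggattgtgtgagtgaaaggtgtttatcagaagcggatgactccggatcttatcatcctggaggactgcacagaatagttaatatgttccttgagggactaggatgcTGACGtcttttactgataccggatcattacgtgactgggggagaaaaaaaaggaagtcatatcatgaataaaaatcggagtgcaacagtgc
Sst: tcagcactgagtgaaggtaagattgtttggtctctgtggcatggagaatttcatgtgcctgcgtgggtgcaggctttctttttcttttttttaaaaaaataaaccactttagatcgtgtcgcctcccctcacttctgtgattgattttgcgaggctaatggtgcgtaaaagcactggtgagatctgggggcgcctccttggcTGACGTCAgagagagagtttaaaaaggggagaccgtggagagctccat
Cck: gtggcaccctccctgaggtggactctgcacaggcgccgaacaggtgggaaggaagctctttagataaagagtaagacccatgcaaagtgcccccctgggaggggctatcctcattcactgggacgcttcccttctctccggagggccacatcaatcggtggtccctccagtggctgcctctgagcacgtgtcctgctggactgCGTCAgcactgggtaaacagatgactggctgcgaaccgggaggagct

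The full CRE of Sst starts at -48 from the RefSeq start site. A half-site stands at -47 in Cck and at -91 in Adcyap1. Adcyap1 has a further promoter entry, not printed, where the same half-site is at -242. That entry also holds a TATAAA at -58, which the printed entry lacks. Gal has a half-site at 20 bases after the start and so outside the printed stretch. The half-site letters are not in the window of Nmb. The full CRE was found in 3 of 15 precursors with an entry (Cartpt, Sst and Ucn) and in 1 of 16 receptors (Sstr2). Counted by promoter entry, this was 3 of 17 and 1 of 18, against 1.79% of 32851 promoters of the same length. The half-site, which every full CRE also contains, was in 11 of 15 precursors and 7 of 16 receptors. By entry it was in 12 of 17 and 7 of 18, against 20.8% of all promoters. The AP-1 motif TGANTCA on either strand was in Nmu, Nts and Npy1r (7.81% of all promoters), and TATAAA on the gene's strand in Adcyap1, Pomc, Vip and Tacr3 (8.32%). The half-site was in the searched windows of genes that rose (Gal, Adcyap1) and of genes that fell (Sst, Cck, Nmu) at day 3. A match is a run of letters and not a measured binding site.

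Among the precursors, Gal, which encodes galanin, had the largest change of any member. Its level was 7.78, 4.99 and 6.78 FPKM in the day 0 libraries, 37.3, 32.7 and 39.4 at day 3, and 8.20, 15.5 and 4.81 at day 21. Every day 3 library lay above every other library, while the day 0 and day 21 ranges overlapped. The log2 change at day 3 was 2.43 ± 0.35 (SE), or 5.37-fold (edgeR adjusted p = 0.000473), and from day 3 to day 21 Gal fell by 2.02 ± 0.35 on the log2 scale (edgeR adjusted p = 0.00301). Day 21 against day 0 gave 0.41 ± 0.35 (edgeR adjusted p = 0.428). Leaving out day 21 replicate 2 turned this value to -0.11 ± 0.24 (edgeR adjusted p = 0.724), and the fall from day 3 was -2.53 ± 0.23 (edgeR adjusted p = 2.29e-05). The day 3 rise and the later fall passed in every alternative run.

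Adcyap1, the PACAP precursor, rose and stayed higher. It measured 12.9, 10.1 and 9.87 FPKM at day 0, 18.4, 17.4 and 20.2 at day 3, and 20.0, 19.2 and 17.9 at day 21. All 6 libraries of day 3 and day 21 lay above all 3 day 0 libraries. The log2 change was 0.72 ± 0.12 at day 3 (edgeR adjusted p = 0.00131) and 0.67 ± 0.12 at day 21 (edgeR adjusted p = 0.0037), and both held in every alternative run. The day 21 value was 0.68 ± 0.12 without day 21 replicate 2 (edgeR adjusted p = 0.00107). Adcyap1 was the 1 precursor that did not lie higher in day 21 replicate 2.

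Nmb, the neuromedin B precursor, and Crh, which encodes corticotropin-releasing hormone, rose from low levels. Nmb was at 1.07, 0.670 and 0.485 FPKM at day 0, 2.59, 2.55 and 2.93 at day 3, and 1.05, 2.77 and 1.09 at day 21. All day 3 libraries were above all day 0 libraries, by 1.79 ± 0.40 (log2, edgeR adjusted p = 0.00546), and at day 21 only replicate 2 lay as high. About 20.6% of the exon bases of Nmb overlap Sec11a on the same strand, so its counts are uncertain. Crh was at 0.662, 0.481 and 0.731 FPKM at day 0, 2.16, 1.65 and 3.05 at day 3, and 0.865, 3.75 and 1.32 at day 21. Its groups did not overlap at day 3 (1.80 ± 0.52, edgeR adjusted p = 0.0201), but the call was lost without day 0 replicate 1 (adjusted p = 0.0693), day 0 replicate 2 (adjusted p = 0.0675) or day 3 replicate 3 (adjusted p = 0.0705), with 0.000533 to 0.0705 over all alternatives. At day 21 the log2 change of Crh was 1.51 ± 0.53 (edgeR adjusted p = 0.0603), or 0.68 ± 0.37 without replicate 2 (edgeR adjusted p = 0.161). With that library left out, Crh was lower at day 21 than at day 3 by -1.11 ± 0.33 (edgeR adjusted p = 0.0188), as was Nmb by -1.38 ± 0.27 (edgeR adjusted p = 0.00212).

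The precursors that fell at day 3 included 2 of the 3 most abundant at day 0. Sst, which encodes somatostatin, an inhibitory peptide of dorsal horn interneurons, had the highest level of all members, at 223, 201 and 201 FPKM at day 0, 108, 118 and 112 at day 3, and 171, 368 and 147 at day 21. The day 0 and day 3 libraries did not overlap, and at day 21 replicates 1 and 3 lay between them while replicate 2 lay above both. The log2 change at day 3 was -0.94 ± 0.29 (edgeR adjusted p = 0.0255), and leaving out any 1 of the day 0 or day 3 libraries gave an adjusted p of 0.0576 to 0.0786 at a change of -0.90 to -0.97, while all alternatives together ran from 2.09e-06 to 0.0786. From day 0 to day 21 the value was 0.00 ± 0.28 (edgeR adjusted p = 0.999), and without day 21 replicate 2 it was -0.50 ± 0.08 (edgeR adjusted p = 0.000803). Against day 3, Sst was higher at day 21 by 0.94 ± 0.29 (edgeR adjusted p = 0.0383), a call that ended when any 1 day 0 or day 3 library was left out (adjusted p = 0.0594 to 0.116, and from 0.000839 over all alternatives). Without day 21 replicate 2 the same difference was 0.44 ± 0.08 (edgeR adjusted p = 0.00152).

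Cck, the cholecystokinin precursor, marks excitatory interneurons of the deep dorsal horn. It measured 58.6, 57.0 and 58.7 FPKM at day 0, 26.5, 21.4 and 23.98 at day 3, and 35.4, 60.9 and 25.01 at day 21. Day 3 lay wholly below day 0, by -1.33 ± 0.27 (log2, edgeR adjusted p = 0.00318), a call kept in every alternative run. The day 21 value was -0.65 ± 0.26 (edgeR adjusted p = 0.0932), and without replicate 2 it was -1.05 ± 0.15 (edgeR adjusted p = 0.000299).

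Nmu, the neuromedin U precursor, fell and returned. Its libraries were at 5.33, 4.06 and 3.50 FPKM at day 0, 0.825, 1.89 and 1.13 at day 3, and 2.84, 7.64 and 4.81 at day 21. The day 3 libraries lay below all others, with a log2 change of -1.78 ± 0.41 from day 0 (edgeR adjusted p = 0.00648) and a later rise of 1.89 ± 0.41 (edgeR adjusted p = 0.00903), both kept in every alternative run. The later rise was 1.49 ± 0.36 without day 21 replicate 2 (edgeR adjusted p = 0.00723), and the day 21 value against day 0 went from 0.11 to -0.29 ± 0.32 (edgeR adjusted p = 0.484). Grp, which encodes gastrin-releasing peptide, an itch transmitter of the dorsal horn, was at 2.72, 2.43 and 2.80 FPKM at day 0, 1.82, 2.34 and 1.65 at day 3, and 2.44, 2.54 and 1.92 at day 21. Its day 0 and day 3 ranges came close (2.43 against 2.34), the log2 change was -0.50 ± 0.18 (edgeR adjusted p = 0.0485), and the call was lost in 11 of 20 alternatives, among them DESeq2 (adjusted p = 0.057) and the fits without any 1 day 0 library, day 3 replicate 1, day 3 replicate 3 or day 21 replicate 1 (adjusted p = 0.0622 to 0.165, and from 0.0111 over all alternatives).

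**Figure D3:**
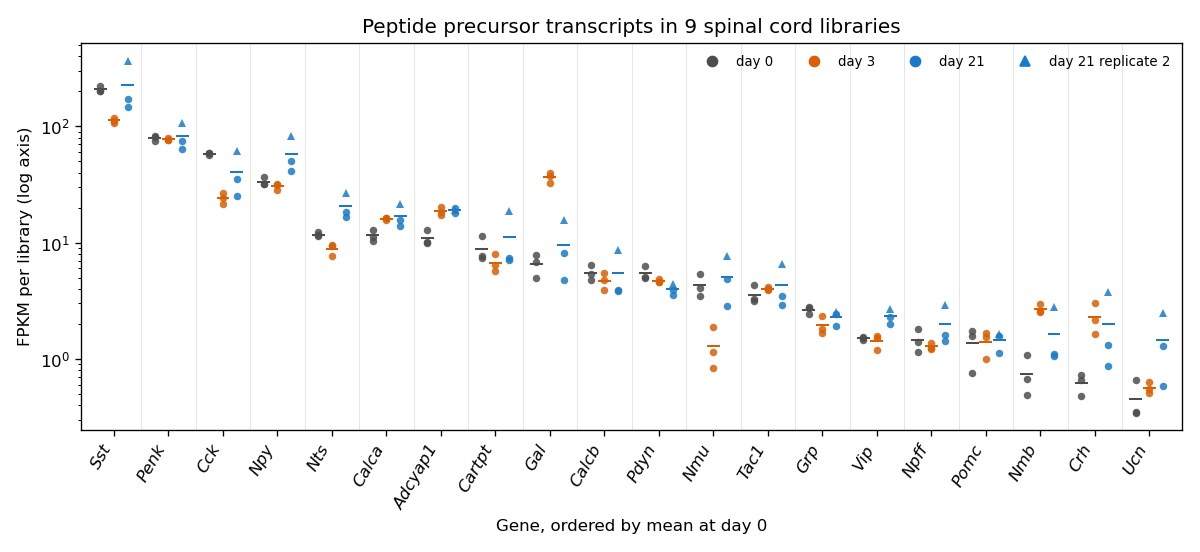
FPKM of the 20 peptide precursors in each of the 9 libraries (log axis), with short bars at group means and triangles for day 21 replicate 2. Gal rises from 6.51 to 36.5 FPKM on average at day 3, Sst, Cck and Nmu are lowest at day 3, and the triangle is the top day 21 point for all precursors except Adcyap1.

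Another 5 precursors were not called at day 3 against day 0 but were called in comparisons with day 21. Nts, which encodes neurotensin, a peptide of dorsal horn interneurons, was at 12.3, 11.5 and 11.3 FPKM at day 0, 7.71, 9.48 and 9.41 at day 3, and 18.5, 27.0 and 16.6 at day 21. The 3 groups did not overlap: day 3 was lowest and day 21 highest. The log2 difference was 0.69 ± 0.18 from day 0 to day 21 (edgeR adjusted p = 0.0183) and 1.14 ± 0.18 from day 3 to day 21 (edgeR adjusted p = 0.00193), while the day 3 value against day 0 was -0.45 (edgeR adjusted p = 0.0676, and 0.0042 without day 21 replicate 2). The day 21 rise over day 0 was lost without any 1 day 0 library (adjusted p = 0.0535 to 0.0641, and from 0.0028 over all alternatives) and was 0.47 ± 0.12 without day 21 replicate 2 (edgeR adjusted p = 0.0078), where the rise over day 3 was 0.93 ± 0.12 (edgeR adjusted p = 0.000155).

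Npy, the precursor of neuropeptide Y, an inhibitor of pain transmission, was at 36.8, 31.8 and 31.8 FPKM at day 0, 31.7, 28.5 and 31.2 at day 3, and 50.6, 82.6 and 41.4 at day 21. All day 21 libraries were above all others. The log2 difference was 0.67 ± 0.22 against day 0 (edgeR adjusted p = 0.0458) and 0.86 ± 0.22 against day 3 (edgeR adjusted p = 0.0185), and without day 21 replicate 2 these became 0.35 ± 0.11 (adjusted p = 0.0277) and 0.54 ± 0.11 (adjusted p = 0.00313). The call against day 0 was lost without any 1 day 0 or day 3 library or day 21 replicate 1 (adjusted p = 0.0596 to 0.13). It was also lost without a count filter (adjusted p = 0.0722), with a replicate block (adjusted p = 0.0819) and with only the 2 groups compared (adjusted p = 0.11). All alternatives ran from 0.00648 to 0.13. The call against day 3 was lost without any 1 day 3 library (adjusted p = 0.0564 to 0.0717, and from 0.000696 over all alternatives).

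Vip, the precursor of vasoactive intestinal peptide, and Ucn, which encodes the CRH-related peptide urocortin, had low levels. Vip was at 1.499, 1.54 and 1.45 FPKM at day 0, 1.59, 1.497 and 1.19 at day 3, and 2.00, 2.70 and 2.29 at day 21. Its day 21 libraries lay above all others, by 0.63 ± 0.19 (log2) over day 3 (edgeR adjusted p = 0.0348), a call lost in 11 of 20 alternatives, among them the fits without day 21 replicate 2 (adjusted p = 0.0524), day 21 replicate 3 (adjusted p = 0.0735), any 1 day 3 library (adjusted p = 0.0667 to 0.13), and day 0 replicates 2 (adjusted p = 0.0557) or 3 (adjusted p = 0.0566), with 0.0102 to 0.13 over all alternatives. Ucn was at 0.343, 0.654 and 0.351 FPKM at day 0, 0.512, 0.632 and 0.553 at day 3, and 0.589, 2.48 and 1.30 at day 21, so that 1 day 21 library lay within the day 0 range. Its log2 difference of 1.58 ± 0.51 at day 21 (edgeR adjusted p = 0.0459) was lost in 11 of the 18 alternatives in which it could be tested. Without day 21 replicate 2 it was 0.98 (adjusted p = 0.112), without day 21 replicate 3 it was 1.64 (adjusted p = 0.0747), and without any 1 day 0 or day 3 library the adjusted p was 0.0565 to 0.149. All alternatives ran from 0.0117 to 0.213.

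Pdyn, the prodynorphin gene, was the 1 precursor lower at day 21 than at day 0. It measured 6.32, 5.07 and 4.996 FPKM at day 0, 4.86, 4.58 and 4.598 at day 3, and 3.56, 4.41 and 3.88 at day 21. The 3 groups did not overlap and stepped down in order of time. The day 21 difference was -0.59 ± 0.13 (log2, edgeR adjusted p = 0.00768), kept in every alternative run and -0.67 ± 0.12 without day 21 replicate 2 (edgeR adjusted p = 0.00126), and the day 3 difference was -0.27 (edgeR adjusted p = 0.107, and 0.0372 without that library).

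The other 7 precursors were not called in any comparison over all 9 libraries. Penk, which encodes the enkephalins, stayed between 63.8 and 107 FPKM with day 3 and day 21 differences from day 0 of -0.08 ± 0.16 each (edgeR adjusted p = 0.718 and 0.762). Penk was called lower at day 21 when day 21 replicate 2 was left out, by -0.30 ± 0.08 against day 0 (edgeR adjusted p = 0.0084) and by -0.22 ± 0.08 against day 3 (edgeR adjusted p = 0.0346). About 14.3% of its exon bases overlap an antisense gene, and the strand setting of the counting is not given. Tac1, the substance P precursor, ran from 2.91 to 6.51 FPKM (0.12 ± 0.26 at day 3, edgeR adjusted p = 0.738), and without day 21 replicate 2 it was called lower at day 21 than at day 3 (-0.38 ± 0.14, edgeR adjusted p = 0.0442). Calca, which encodes calcitonin gene-related peptide (CGRP) and calcitonin, was at 10.4 to 13.0 FPKM at day 0 and 15.6 to 16.2 at day 3, with no overlap, a log2 difference of 0.42 ± 0.15 and an edgeR adjusted p of 0.0507. Without day 21 replicate 2 Calca was called higher at day 3 (0.42 ± 0.08, edgeR adjusted p = 0.00155). Its paralog Calcb ran from 3.82 to 8.65 FPKM and was called lower at day 21 than at day 0 without that library (-0.62 ± 0.17, edgeR adjusted p = 0.0151), and reads shared between these 2 genes may be split. Cartpt, the CART peptide precursor, ran from 5.69 to 18.9 FPKM, Npff from 1.15 to 2.91 and Pomc, which encodes melanocortins and beta-endorphin, from 0.756 to 1.74. Npff shares 32.6% of its exon bases with another gene on the same strand.

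Receptors of the somatostatin family were lower at day 3, as was their ligand. Sstr2, an inhibitory receptor of dorsal horn neurons, was at 2.05, 1.69 and 2.18 FPKM at day 0, 0.974, 0.898 and 1.32 at day 3, and 1.48, 1.18 and 1.42 at day 21. Both later groups lay below day 0, by -0.95 ± 0.19 at day 3 (log2, edgeR adjusted p = 0.0033) and -0.66 ± 0.19 at day 21 (edgeR adjusted p = 0.0289), and the second call was lost without day 0 replicate 1 (adjusted p = 0.0718), day 0 replicate 3 (adjusted p = 0.102) or day 21 replicate 3 (adjusted p = 0.0514), with 0.012 to 0.102 over all alternatives. Without day 21 replicate 2 it was -0.55 ± 0.18 (edgeR adjusted p = 0.0306). Sstr1 was at 2.30, 2.17 and 1.97 FPKM at day 0, 0.792, 1.24 and 0.730 at day 3, and 1.35, 0.639 and 1.91 at day 21. Its day 0 and day 3 libraries did not overlap (-1.26 ± 0.36, edgeR adjusted p = 0.0185), and the call was lost without day 3 replicate 1 (adjusted p = 0.0686) or day 3 replicate 3 (adjusted p = 0.0707), with 0.000237 to 0.0707 over all alternatives. Without day 21 replicate 2, Sstr1 was called higher at day 21 than at day 3 (0.75 ± 0.24, edgeR adjusted p = 0.0265).

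Tacr1, the substance P receptor carried by dorsal horn projection neurons, was at 2.00, 1.99 and 2.05 FPKM at day 0, 0.840, 0.856 and 0.890 at day 3, and 1.09, 0.815 and 1.34 at day 21. The day 3 and day 21 libraries all lay below the day 0 libraries, by -1.28 ± 0.18 at day 3 (log2, edgeR adjusted p = 0.000367) and -1.02 ± 0.18 at day 21 (edgeR adjusted p = 0.00278), and both calls held in every alternative run. The day 21 value was -0.84 ± 0.11 without day 21 replicate 2 (edgeR adjusted p = 0.000209), where Tacr1 was also called higher than at day 3 (0.44 ± 0.11, edgeR adjusted p = 0.00931). The transcript of its ligand, Tac1, was not called against day 0 at either time. Tacr3, the receptor of neurokinin B, fell and returned, at 2.80, 3.15 and 3.18 FPKM at day 0, 1.32, 1.56 and 1.19 at day 3, and 3.51, 1.85 and 2.90 at day 21. The day 3 libraries were below all others, by -1.22 ± 0.24 from day 0 (log2, edgeR adjusted p = 0.00289). Day 21 lay above day 3 by 0.95 ± 0.24 (edgeR adjusted p = 0.018), a call lost without day 3 replicate 1 (adjusted p = 0.0653), day 3 replicate 3 (adjusted p = 0.0732) or day 21 replicate 1 (adjusted p = 0.0612), with 6.5e-05 to 0.0732 over all alternatives. That difference was 1.18 ± 0.16 without day 21 replicate 2 (edgeR adjusted p = 0.000211).

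The 3 opioid receptors had their lowest group mean at day 3. Oprd1, the delta receptor for enkephalins, was at 3.66, 4.12 and 3.81 FPKM at day 0, 0.912, 1.19 and 1.07 at day 3, and 2.54, 0.530 and 2.16 at day 21. Day 3 lay below day 0 without overlap, by -1.92 ± 0.45 (log2, edgeR adjusted p = 0.00731), and this call held in every alternative run. At day 21 the value was -1.26 ± 0.44 (edgeR adjusted p = 0.0578), and without replicate 2, the lowest library, it was -0.83 ± 0.14 (edgeR adjusted p = 0.00115), with a rise over day 3 of 1.09 ± 0.15 (edgeR adjusted p = 0.000279). Oprm1, the mu receptor, was low, at 0.200 to 0.374 FPKM at day 0, 0.0383 to 0.0917 at day 3 and 0.0141 to 0.374 at day 21. Its day 3 value was -2.12 ± 0.79 (edgeR adjusted p = 0.0541), and without day 21 replicate 2 it was -2.11 ± 0.40 (edgeR adjusted p = 0.00148), with a rise from day 3 to day 21 of 1.96 ± 0.44 (edgeR adjusted p = 0.00571). Oprk1, the dynorphin receptor, ran from 0.397 to 0.476 FPKM at day 0, 0.206 to 0.347 at day 3 and 0.339 to 0.754 at day 21. Its day 3 value against day 0 was -0.76 ± 0.31 (edgeR adjusted p = 0.0762), and without day 21 replicate 2 it was called lower at day 3 (-0.76 ± 0.20, edgeR adjusted p = 0.00763) and higher at day 21 than at day 0 (0.57 ± 0.20, edgeR adjusted p = 0.0429). It was higher at day 21 than at day 3 by 1.06 ± 0.31 (edgeR adjusted p = 0.0326), with the lowest day 21 library inside the day 3 range. That call was lost without day 0 replicate 2 or 3, day 3 replicate 1 or 3, or day 21 replicate 1 or 3 (adjusted p = 0.0522 to 0.116, and from 0.000331 over all alternatives), and without day 21 replicate 2 the difference was 1.33 ± 0.21 (adjusted p = 0.000673).

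Vipr2, which binds both VIP and PACAP, had the largest fall among the called members. It was at 1.71, 1.84 and 1.98 FPKM at day 0, 0.445, 0.356 and 0.506 at day 3, and 1.34, 0.852 and 1.08 at day 21. The 3 groups did not overlap, with day 3 lowest and day 21 between. The log2 change was -2.13 ± 0.22 at day 3 (edgeR adjusted p = 5.51e-05), -0.87 ± 0.20 at day 21 (edgeR adjusted p = 0.0119) and 1.26 ± 0.22 from day 3 to day 21 (edgeR adjusted p = 0.0034), and all 3 calls held in every alternative run. The last pair of values was -0.71 ± 0.17 and 1.43 ± 0.19 without day 21 replicate 2 (edgeR adjusted p = 0.0074 and 0.000222). Adcyap1r1, the PACAP-preferring receptor that astrocytes also express, was at 29.1, 24.98 and 25.5 FPKM at day 0, 20.5, 20.3 and 19.2 at day 3, and 23.3, 16.4 and 21.2 at day 21. Its day 3 and day 21 libraries lay below all day 0 libraries, by -0.46 ± 0.14 at day 3 (edgeR adjusted p = 0.0269) and -0.50 ± 0.14 at day 21 (edgeR adjusted p = 0.0261). The day 3 call was lost without any 1 day 0 or day 3 library (adjusted p = 0.0527 to 0.0905, and from 7.1e-05 over all alternatives) and the day 21 call without any 1 day 0 library (adjusted p = 0.0571 to 0.0739, and 0.00244 to 0.0907 over all). The day 21 value without day 21 replicate 2 was -0.36 ± 0.07 (edgeR adjusted p = 0.00244). Vipr1, which also binds both peptides, stayed between 0.171 and 0.348 FPKM and was not called (-0.56 ± 0.30 at day 3, edgeR adjusted p = 0.16). At day 3 the PACAP precursor was higher, 2 of its 3 receptors were lower and the third was not called.

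Ntsr2 had the highest level of any receptor, a neurotensin receptor found in astrocytes as well as neurons. It was at 163, 149 and 146 FPKM at day 0, 91.8, 87.1 and 87.7 at day 3, and 146, 211 and 131 at day 21. Day 3 lay below all other libraries, by -0.83 ± 0.16 from day 0 (log2, edgeR adjusted p = 0.00214), with a rise of 0.79 ± 0.16 to day 21 (edgeR adjusted p = 0.00566), and both held in every alternative run. Without day 21 replicate 2 the day 21 value against day 0 went from -0.04 to -0.25 ± 0.07 (edgeR adjusted p = 0.0123), and the rise over day 3 was 0.58 ± 0.07 (edgeR adjusted p = 8.13e-05). Ntsr1, a neuronal receptor, was lower, at 0.798 to 1.10 FPKM at day 0, 0.261 to 0.391 at day 3 and 0.564 to 0.686 at day 21, with no overlap between groups. Its log2 change was -1.48 ± 0.22 at day 3 (edgeR adjusted p = 0.000534), -0.75 ± 0.21 at day 21 (edgeR adjusted p = 0.0272) and 0.74 ± 0.22 between day 3 and day 21 (edgeR adjusted p = 0.0377). The second call was lost without day 0 replicate 1 (adjusted p = 0.0536), day 0 replicate 3 (adjusted p = 0.103) or day 21 replicate 3 (adjusted p = 0.0695), with 0.0156 to 0.103 over all alternatives, and the third without day 0 replicate 2, any 1 day 3 library, or day 21 replicate 1 or 3 (adjusted p = 0.0513 to 0.132, and from 0.0113 over all). The same 2 values were -0.68 ± 0.22 and 0.80 ± 0.24 without day 21 replicate 2 (edgeR adjusted p = 0.0289 and 0.0196).

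The CGRP receptor is a complex of Calcrl with the accessory protein Ramp1, and Calcrl was the 1 receptor gene that rose. It was at 0.944, 0.703 and 0.808 FPKM at day 0, 1.75, 1.52 and 1.72 at day 3, and 1.68, 1.21 and 2.14 at day 21. All day 3 and day 21 libraries lay above all day 0 libraries. The log2 change was 0.97 ± 0.21 at day 3 (edgeR adjusted p = 0.00525), kept in every alternative run, and 0.91 ± 0.21 at day 21 (edgeR adjusted p = 0.012), lost without day 0 replicate 2 (adjusted p = 0.0516, with 0.000169 to 0.0516 over all alternatives) and 1.10 ± 0.15 without day 21 replicate 2 (edgeR adjusted p = 0.000236). Ramp1 was at 26.4 to 31.1 FPKM at day 0, 25.6 to 25.9 at day 3 and 23.0 to 48.6 at day 21, with the top value in replicate 2, and was not called over all 9 libraries. Without that library Ramp1 was called lower at day 3 (-0.19 ± 0.07, edgeR adjusted p = 0.0351) and at day 21 (-0.33 ± 0.08, edgeR adjusted p = 0.00604). Ramp2, the partner that makes Calcrl an adrenomedullin receptor, rose at day 3 by 1.17 ± 0.21 (edgeR adjusted p = 0.00171), and Adm, the adrenomedullin precursor, rose by 2.49 ± 0.15 (edgeR adjusted p = 1.83e-06). Calcrl and Ramp2 are abundant in endothelial cells, and 6 of 8 endothelial markers also rose at day 3 (median 0.95), with a summed FPKM of 56.5 to 67.5 at day 0, 168 to 175 at day 3 and 55.1 to 75.4 at day 21 and no marker at 0. At day 21 none of the 8 was higher, while Calcrl was. Their part in the Calcrl result was not tested.

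Cckbr, the main cholecystokinin receptor of the nervous system, was at 5.44, 8.97 and 7.92 FPKM at day 0, 4.56, 3.86 and 4.15 at day 3, and 5.03, 6.08 and 6.48 at day 21. Day 3 lay below all day 0 and day 21 libraries, by -0.88 ± 0.20 from day 0 (log2, edgeR adjusted p = 0.00664), kept in every alternative run. Grpr, the itch-related receptor of gastrin-releasing peptide, ran from 0.607 to 0.704 FPKM at day 0, 0.199 to 0.266 at day 3 and 0.0545 to 0.478 at day 21. Its day 3 change was -1.48 ± 0.52 (edgeR adjusted p = 0.0445), and the call was lost without any 1 day 0 or day 3 library (adjusted p = 0.0817 to 0.134, and from 0.000392 over all alternatives). Grpr was called higher at day 21 than at day 3 when day 21 replicate 2 was left out (0.91 ± 0.30, edgeR adjusted p = 0.0295). Cck and Grp were called lower at day 3, as were their receptors Cckbr and Grpr. A further cholecystokinin receptor outside the member list, Cckar, went the other way at day 3 in raw counts. Its day 0 libraries held 27, 25 and 20, its day 3 libraries 73, 98 and 76, and its day 21 libraries 18, 9 and 18. These counts are not scaled to library total, which was 15763769 to 24022923 at day 0 and 14916863 to 17930431 at day 3.

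Galr1, an inhibitory galanin receptor, went the other way from its ligand. It ran from 0.554 to 0.623 FPKM at day 0, 0.194 to 0.234 at day 3 and 0.263 to 0.486 at day 21, with no overlap between groups. The log2 change was -1.56 ± 0.28 at day 3 (edgeR adjusted p = 0.00159), kept in every alternative run, and -0.78 ± 0.26 at day 21 (edgeR adjusted p = 0.0501). The day 21 value without day 21 replicate 2 was -0.58 ± 0.25 against day 0 (edgeR adjusted p = 0.0888) and 0.98 ± 0.29 against day 3 (edgeR adjusted p = 0.0196). Galr2, a further galanin receptor, was below 0.1 FPKM in every library and too low to test. The NPY receptors among the members, Npy1r and Npy2r, did not pass the test in any comparison. Npy1r ran from 2.45 to 3.68 FPKM and Npy2r from 0.366 to 0.627, with day 3 values of -0.04 and -0.05. Npy5r, an NPY receptor outside the member list, had 102, 44 and 57 counts at day 0 and 24, 28 and 20 at day 3. At day 21 it had 33, 43 and 33, and these Npy5r counts are not scaled to library total.

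**Figure D4:**
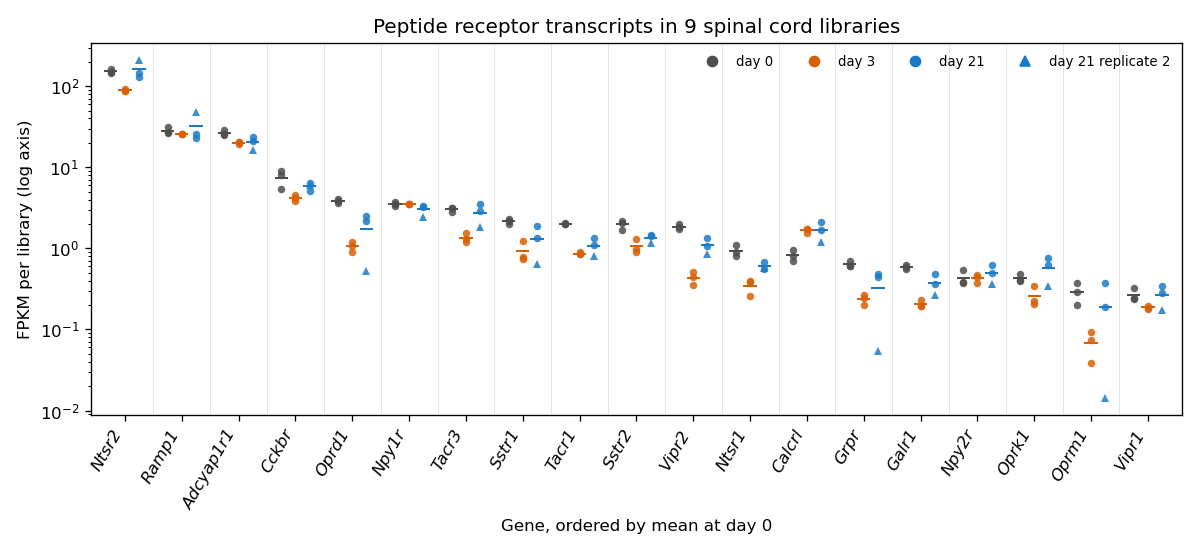
FPKM of the 19 receptors and subunits in each of the 9 libraries (log axis), with short bars at group means and triangles for day 21 replicate 2. The orange day 3 points lie below the grey day 0 points for 12 called receptors, Calcrl lies above, and Ntsr2, Ramp1 and Adcyap1r1 are the 3 most abundant.

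Summed over roles, the precursors came to 456 ± 29.3 FPKM at day 0, 358 ± 8.20 at day 3 and 518 ± 217 at day 21 (SD, n = 3), the last with 767 in replicate 2 and 423 and 365 in the others. The receptors came to 238 ± 11.7, 152 ± 2.97 and 238 ± 48.7 FPKM. Sst made up the largest share of the first sum and Ntsr2 of the second.

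Peptide genes outside the member list changed in both directions at day 3. Of 36 other precursors, 14 were expressed enough to test, and 4 rose and 8 fell (median -0.61), beside 24.8% and 19.5% of all tested genes. For this list and those that follow, the shares at day 21 were 17.9% higher and 11.3% lower against day 0. Against day 3 they were 11.7% and 16.1%. The lower calls of Edn3, Npb, Nppc and Pthlh at day 3 were each lost in some fits that left out 1 day 0 or day 3 library. Ucn2, which encodes a CRH-family peptide, had the largest change, from 0 to 0.0983 FPKM at day 0 to 4.73 to 4.99 at day 3 (6.51 ± 0.67, edgeR adjusted p = 5.73e-05) and back to 0 to 0.417 at day 21. Edn1, the vasoconstrictor endothelin 1, rose by 2.70 ± 0.25 (edgeR adjusted p = 2.76e-05), and Ucn3 was lower by -2.17 ± 0.46 (edgeR adjusted p = 0.00409). Tac2, which encodes the Tacr3 ligand neurokinin B, was at 37.9 to 47.4 FPKM at day 0, 21.8 to 23.5 at day 3 and 35.8 to 69.3 at day 21, and its day 3 change of -1.04 ± 0.23 (edgeR adjusted p = 0.00531) and later rise of 1.04 ± 0.23 (edgeR adjusted p = 0.00992) ran beside those of the receptor. By day 21, 2 of the 14 were higher than at day 0 (Nucb2 by 0.84 and Edn3 by 0.75) and 1 was lower (Apln by -0.94). Against day 3, 4 were higher and 3 lower, the last being Ucn2 (-4.82), Edn1 (-2.82) and Adm (-2.74).

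Of 47 other receptors and binding proteins, 37 could be tested. At day 3, 6 rose and 12 fell (median -0.46). Ednra, an endothelin receptor, rose by 1.78 ± 0.20 (edgeR adjusted p = 8.72e-05). Lower were Trhr, the thyrotropin-releasing hormone receptor, by -1.66 ± 0.20 (edgeR adjusted p = 0.000141), Oprl1, the nociceptin receptor, by -1.37 ± 0.12 (edgeR adjusted p = 1.55e-05) and Sstr3 by -1.29 ± 0.25 (edgeR adjusted p = 0.00266). The CRH receptor Crhr1 and the CRH-binding protein Crhbp were lower at day 3 by -1.02 and -1.13, while Crh rose. Compared with day 0, 4 were higher and 7 lower at day 21 (median -0.28), with Ednra at 0.94, Oprl1 at -0.80 and the orphan receptors Gpr37 at -0.69 and Gpr83 at -0.67. Between day 3 and day 21 8 were higher and 6 lower at day 21, with Trhr at 1.99.

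The enzymes and granule proteins that make, store and break down peptides were all expressed enough to test, 24 of 24. At day 3, 4 rose and 10 fell (median -0.17). Among those that fell were Cadps, a vesicle-priming factor (-1.60 ± 0.22, edgeR adjusted p = 0.000366), the granule protein Chga (-1.19 ± 0.19, edgeR adjusted p = 0.000837) and the convertase Pcsk2 (-1.16 ± 0.14, edgeR adjusted p = 0.00012). The 4 that rose were Anpep, a surface aminopeptidase (3.08 ± 0.11, edgeR adjusted p = 1.18e-07), the endothelin-converting enzyme Ece1 (1.18 ± 0.16, edgeR adjusted p = 0.000299), Prep and Nln, the last named after its values were seen. All 4 are peptidases, but other peptidases of the list, Ece2, Mme, Ace, Thop1 and Dpp4, were not called higher at day 3. The convertase Pcsk2, also a peptidase, fell. The calls of Nln and Prep were lost without any 1 day 0 or day 3 library (edgeR adjusted p = 0.0501 to 0.062 and 0.0678 to 0.0972). Both were also lost without a count filter (edgeR adjusted p = 0.0521 and 0.0953). By day 21, 2 were higher than at day 0 (Anpep by 2.32 and Dpp4 by 1.60) and 4 lower (Cadps by -0.92, Pcsk2 by -0.68, Chga by -0.57 and Cadps2 by -0.54), Dpp4 and Cadps2 being named after their values were seen. The Chga call (edgeR adjusted p = 0.0497) was lost in 14 of 20 alternatives, among them each fit without 1 library other than day 21 replicate 2 (0.0763 to 0.137), and the Cadps2 call without day 0 replicate 2 (adjusted p = 0.0648) or 3 (adjusted p = 0.0645). With only the 2 groups compared, Cadps and Cadps2 were not called at day 21 against day 0 (edgeR adjusted p = 0.0504 and 0.0764). Against day 3, 9 were higher and 4 lower at day 21, beside 11.7% and 16.1% of all tested genes. The higher calls of Cadps, Chga, Chgb, Pcsk2, Scg3 and Scg5 were each lost in 1 or more alternatives, as was the lower call of Ace.

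Markers of several cell types moved with these results. All 10 pan-neuronal markers were lower at day 3 (median -0.99), close to the receptor median of -0.95, and 6 of 10 were lower at day 21 (median -0.48). Of 10 dorsal horn interneuron markers, 9 were lower at day 3 (median -1.10) and 5 at day 21 (median -0.50), with a summed FPKM of 286 to 297 at day 0, 111 in each day 3 library and 153 to 204 at day 21, and none at 0. Of 8 motor neuron markers, 5 were lower and 1 higher at day 3 (median -1.44), with sums of 129 to 145, 102 to 109 and 97.2 to 135 FPKM. Oligodendrocyte markers were lower too, 6 of 8 at day 3 (median -0.51) and 1 of 8 at day 21, with sums of 1863 to 1984, 1585 to 1611 and 1771 to 1884 FPKM and none at 0. The part of either cell type in the fall of any member was not tested.

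Primary sensory neurons, whose cell bodies lie in the dorsal root ganglia outside the cord, express Gal, Adcyap1, Calca, Tac1 and Nmb among other peptides, and their markers were higher after day 0. Of 13 such markers, 12 were higher at day 3 (median 6.33) and 8 at day 21 (median 4.22), and all 13 fell from day 3 to day 21 (median -2.43). Their summed FPKM was 28.8 to 30.4 at day 0, 85.4 to 85.6 at day 3 and 32.6 to 38.4 at day 21, and Ret, which cord neurons also express, made up 26.4 to 28.0 FPKM of the day 0 sum. Mrgprd and Mrgprx1 were at 0 in all day 0 libraries, and the nociceptor sodium channel Scn10a was at 0 to 0.00989 FPKM at day 0, 8.77 to 9.37 at day 3 and 1.2003 to 1.73 at day 21. With these markers near 0 at day 0, Calca stood at 10.4 to 13.0 and Adcyap1 at 9.87 to 12.9 FPKM there. From day 3 to day 21 the markers and Gal fell, while Adcyap1 did not change by more than its error (-0.04 ± 0.12, edgeR adjusted p = 0.827). The part of sensory neuron RNA in the rise of Gal, Adcyap1 or Nmb was not tested.

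Schwann cell markers were also higher than at day 0, 8 of 8 at day 3 (median 2.57) and 8 of 8 at day 21 (median 1.06), with sums of 96.9 to 137, 471 to 480 and 190 to 256 FPKM and none at 0. Sympathetic neuron markers, which are known to express Npy, did not pass the test in either comparison with day 0 for the 3 of 8 that could be tested, and their sums were 3.79 to 4.75, 5.62 to 6.46 and 3.34 to 5.35 FPKM, with Hand2 at 0 in all libraries. Of 8 astrocyte markers, which bear on Ntsr2 and Adcyap1r1, 4 were higher and 3 lower at day 3 (median 0.00) and 2 higher at day 21, with sums of 1676 to 1818, 2998 to 3050 and 2736 to 3632 FPKM. Myeloid markers were higher at both times (10 of 10), and fibroblast markers were 6 of 6 and 5 of 6. Lymphocyte markers stayed too low to test. Skeletal muscle markers rose at day 21 in 8 of 8, with sums of 14.4 to 18.5, 9.92 to 10.4 and 110 to 183 FPKM. Their part in the members' results was not tested.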

How the data were processed

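The series holds 9 bulk RNA libraries of mouse spinal cord, 3 each at 0, 3 and 21 days. Per the labels' protocols, poly-A RNA was fragmented and made into paired-end libraries. HISAT2, StringTie and the human build GRCh38 appear, with no tool versions, per the submitters' processing notes, while the deposited loci are those of mouse GRCm38. The annotation and strand setting used in counting were not given in the labels or headers. The authors deposited 1 whole-number count and 1 FPKM value per gene and library, per the file headers. Deposited FPKM matched the count divided by gene length and library total, within 0.000927% over 12001 genes holding 50 counts or more in each library, and the lengths this implies were used as gene lengths. Library totals ran from 14299679 to 24022923 counts.

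Counts were tested in edgeR 4.0.16 (R 4.3.3) after TMM scaling and filterByExpr, by a robust quasi-likelihood F test. One model held the 9 libraries, which left 6 residual degrees of freedom, and the common biological variation (BCV) was 0.205. The script was tested on simulated data. Calls needed an adjusted p (Benjamini-Hochberg, two-sided, 16494 genes) under 0.05, and adjusted p-values for a left-out library come from the same test. SE is the log2 change divided by the square root of F. Alternatives were other scaling, DESeq2 1.42.0, other count filters, limma 3.58.1 (voom with sample weights, log2 of FPKM plus a pseudocount of 1 or 0.1), a replicate block, each library left out, and, chosen after seeing the data, removal of the gene-length trend. Motifs were searched with Python 3.11.15. No 2 libraries held identical values.

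Every member is accounted for. Members called in at least 1 comparison with a group mean of at least 1 FPKM are given per library, and other members by range. Of the other lists, up to 4 called genes per comparison with the largest change and at least 1 FPKM are named, together with partners of members. The members and lists were chosen with earlier results of these data known.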

Additional observations from a re-analysis of the deposited data

How the results depend on the processing

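For day 3 against day 0 the counts of members stayed within 1.5 times of 5 higher and 16 lower in every alternative run, at 4 to 6 and 11 to 21. Of the 21 calls, 15 held in every alternative in which the gene was tested (19 of 20 for Galr1 and Ntsr1, which miss the filter of 1 FPKM in 3 libraries, and 20 for the others), as did 4 of 11 at day 21 against day 0 and 5 of 11 at day 21 against day 3. At day 21 against day 0, the 5 higher members became 3 without a count filter, 2 with only the 2 groups compared and 1 to 6 with 1 library left out, and the 6 lower became 3 with only the 2 groups, 15 with voom sample weights and 3 to 13 with 1 library left out. At day 21 against day 3, the 10 higher became 5 with only the 2 groups and 18 with voom weights. They became 4 to 15 with 1 library left out. The 1 lower became 5 with voom weights, 3 with the gene-length trend removed and 1 to 6 with 1 library left out. The share of all tested genes called moved with the setting too. Higher calls at day 21 against day 3 were 11.7% of all genes, and 23.5% without day 21 replicate 2. Lower calls at day 21 against day 0 were 11.3% and 22.4%. The counts in this section show the dependence on the setting and are not results about the members.

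Voom gave day 21 replicate 2 a weight of 0.0583, and single values changed sign with it down-weighted or left out. From day 0 to day 21, Sst was -0.43 with voom and -0.50 to 0.23 with 1 library left out, and Ramp1 -0.25 and -0.33 to 0.25. From day 3 to day 21, Tac1 was -0.33 with voom and -0.38 to 0.23 with 1 library left out, and Penk -0.22 to 0.15 with 1 library left out. The negative end came without replicate 2 in each case.

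With the replicate number as a block the members gave 5 higher and 14 lower at day 3 against day 0, 4 and 6 at day 21 against day 0, and 7 and 1 at day 21 against day 3. The deviations of same-numbered libraries correlated at -0.146 to 0.107, so the numbers were not taken as a pairing. The low counts of Oprm1, Grpr, Ucn and Galr1 limit what 3 libraries per group can show. Some calls given above as lost without 1 library were lost in other fits too. The block fit lost Grpr at day 3 and Sst and Oprk1 at day 21 against day 3. With only the 2 groups compared, Nts, Sstr2, Adcyap1r1 and Ntsr1 were lost at day 21 against day 0. The same fit lost Sst, Npy, Oprk1 and Ntsr1 at day 21 against day 3. With limma on log2 of FPKM plus 0.1, Grpr was lost at day 3, and Sstr2, Adcyap1r1 and Ntsr1 at day 21 against day 0.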
